A study of Homo sapiens with 6 samples.

Results

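EML4, ROCK2, TWF2 and PCM1 are 4 genes of the cytoskeleton and the centrosome that were chosen for the peaks of V5-tagged TAF2 at or beside them in HepG2 chromatin. Every peak over the annotated span of a gene or within 10 kb of it was taken, which gave 75 of the 6043 deposited peaks, and the 4 genes are 4 of 19987 protein-coding genes on sequences that hold peaks. Because the genes were chosen on these peaks, the number, extent, folds and sharing of their peaks are a description, and no test was run on them.

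The peaks come from chromatin immunoprecipitation and sequencing (ChIP-seq) of a HepG2 clone that carries V5-tagged TAF2. HepG2 is an established line from a human liver cancer, TAF2 is a subunit of the general transcription factor TFIID, and V5 is a short peptide tag. The samples are 3 libraries from the V5 immunoprecipitation (replicates 1, 2 and 3) and 3 control libraries from the same clone, which the labels call input in their treatment and titles and IgG in their library names. All libraries therefore carry the tagged protein, they stem from a line named as a clone, and no untagged cells or peaks of the controls were used here, so the values have no measured background next to them. The V5 lists held 1599, 2557 and 1887 peaks in replicates 1, 2 and 3, without read totals, which leaves their depth unknown. Separate cultures for the replicates are not stated, so spreads between them may be technical. Of 14 hepatocyte marker genes 9 had a region shared by at least 2 libraries over the span or within 10 kb. So did 0 of 5 blood markers, 1 of 5 stromal and endothelial markers (PECAM1) and 4.37% of all protein-coding genes. At that share, counts among 5 genes say little about the blood, stromal and endothelial markers.

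TFIID assembles at core promoters, next to the transcription start, and recruits RNA polymerase II together with the other general factors. TAF2 is among the subunits that place TFIID on promoter DNA around the start. The 4 genes act on the cell's scaffolds. EML4 is a microtubule-binding protein of the mitotic spindle, known in lung cancer as the partner of ALK in a gene fusion. ROCK2 is a kinase that promotes actomyosin contraction. TWF2 is a twinfilin, which binds actin monomers and caps filament ends. PCM1 is the scaffold protein of centriolar satellites, the granules that carry proteins to the centrosome and the primary cilium.

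The 4 genes fell into 3 layouts. EML4 and ROCK2 held runs of peaks that began close to the annotated start and ended far short of the other end of the gene. In replicate 1 of ROCK2 the run began farther in, 2541 bp inside the outermost annotated start. TWF2 held a single narrow peak at the same place in each library, so that the name of clustered peaks does not apply to it. At PCM1 the run of peaks lay outside the gene, before its lower annotated end.

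The promoters of 3 of the genes could be read, from RefSeq sequence on GRCh38.p14, at 4 annotated starts. The 250 bases upstream of a start are shown for the starts of EML4, ROCK2 and TWF2, to show where the deposited peaks touch the promoter and where they do not. Each is written 5′ to 3′ along the gene, with bases inside a deposited peak in capitals and all others in lower case. The first lies at chr2:42169103-42169352 on the plus strand, the next at chr2:11344637-11344886 on the minus strand, upstream of the inner of 2 annotated ROCK2 starts, and the last at chr3:52239159-52239408 on the minus strand.
EML4: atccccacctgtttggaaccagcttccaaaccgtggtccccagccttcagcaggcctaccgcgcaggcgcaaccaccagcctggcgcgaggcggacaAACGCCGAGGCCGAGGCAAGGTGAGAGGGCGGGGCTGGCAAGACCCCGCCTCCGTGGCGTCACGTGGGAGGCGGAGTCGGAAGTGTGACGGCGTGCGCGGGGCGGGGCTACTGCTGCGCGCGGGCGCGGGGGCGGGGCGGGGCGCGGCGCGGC
ROCK2 inner start: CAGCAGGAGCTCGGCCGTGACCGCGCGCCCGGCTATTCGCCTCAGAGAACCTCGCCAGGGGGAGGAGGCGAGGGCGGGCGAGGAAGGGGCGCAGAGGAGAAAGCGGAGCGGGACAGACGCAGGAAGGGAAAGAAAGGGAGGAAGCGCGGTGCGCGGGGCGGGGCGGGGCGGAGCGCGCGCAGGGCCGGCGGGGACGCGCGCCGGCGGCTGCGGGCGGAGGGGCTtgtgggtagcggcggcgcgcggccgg
TWF2: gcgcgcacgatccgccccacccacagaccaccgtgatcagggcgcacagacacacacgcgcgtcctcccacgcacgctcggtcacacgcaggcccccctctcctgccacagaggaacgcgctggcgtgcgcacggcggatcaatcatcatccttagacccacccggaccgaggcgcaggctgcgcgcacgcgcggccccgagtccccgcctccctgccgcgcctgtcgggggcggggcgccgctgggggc

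In these windows 153 of the 250 upstream bases of EML4 lay in a peak, of replicate 3 alone, and 224 of those of ROCK2, in a peak of replicate 2 alone. None of the TWF2 bases did, and the same held for the 250 bases upstream of the outer ROCK2 start at position 11345437. Over 300 bases, from 250 before to 50 after the start, G and C made up 75.7% at EML4, 77.3% at the inner ROCK2 start and 75.0% at TWF2, against 49.3% at the outer ROCK2 start. The median of 22156 promoters of protein-coding genes was 62.3%. The GC box GGGCGG was found on either strand 4 times at EML4, 6 times at the inner ROCK2 start, once at the outer start and 4 times at TWF2, where overlapping matches were counted singly, and 56.3% of all promoters of this length held it. The CCAAT letters were found at none of the 4 starts, against 34.6% of all promoters. TATAAA was found at the outer ROCK2 start only, as TTTATA along the gene 31 bases before the start, and 9.46% of all promoters held it on either strand. A match of letters is a description and not a binding site.

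EML4 (chromosome 2, 42169353 to 42332548, plus strand) is 163 kb long and had 14 peaks in replicate 1, 18 in replicate 2 and 10 in replicate 3, on average 14 ± 4 (SD, n = 3). The counts differed between libraries, with the most peaks in the longest list, that of replicate 2. The run of peaks was nearly as long in each, 25.9 kb in replicate 1, 26.2 kb in replicate 2 and 26.6 kb in replicate 3, a mean of 26.2 ± 0.337 kb (SD, n = 3). All summits, which are the positions of highest signal within a peak, lay between 1 and 26594 bp downstream of the start, that is within 16.3% of the length of the gene. The remaining 136 kb of EML4 held no peak in any library.

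**Figure D1:**
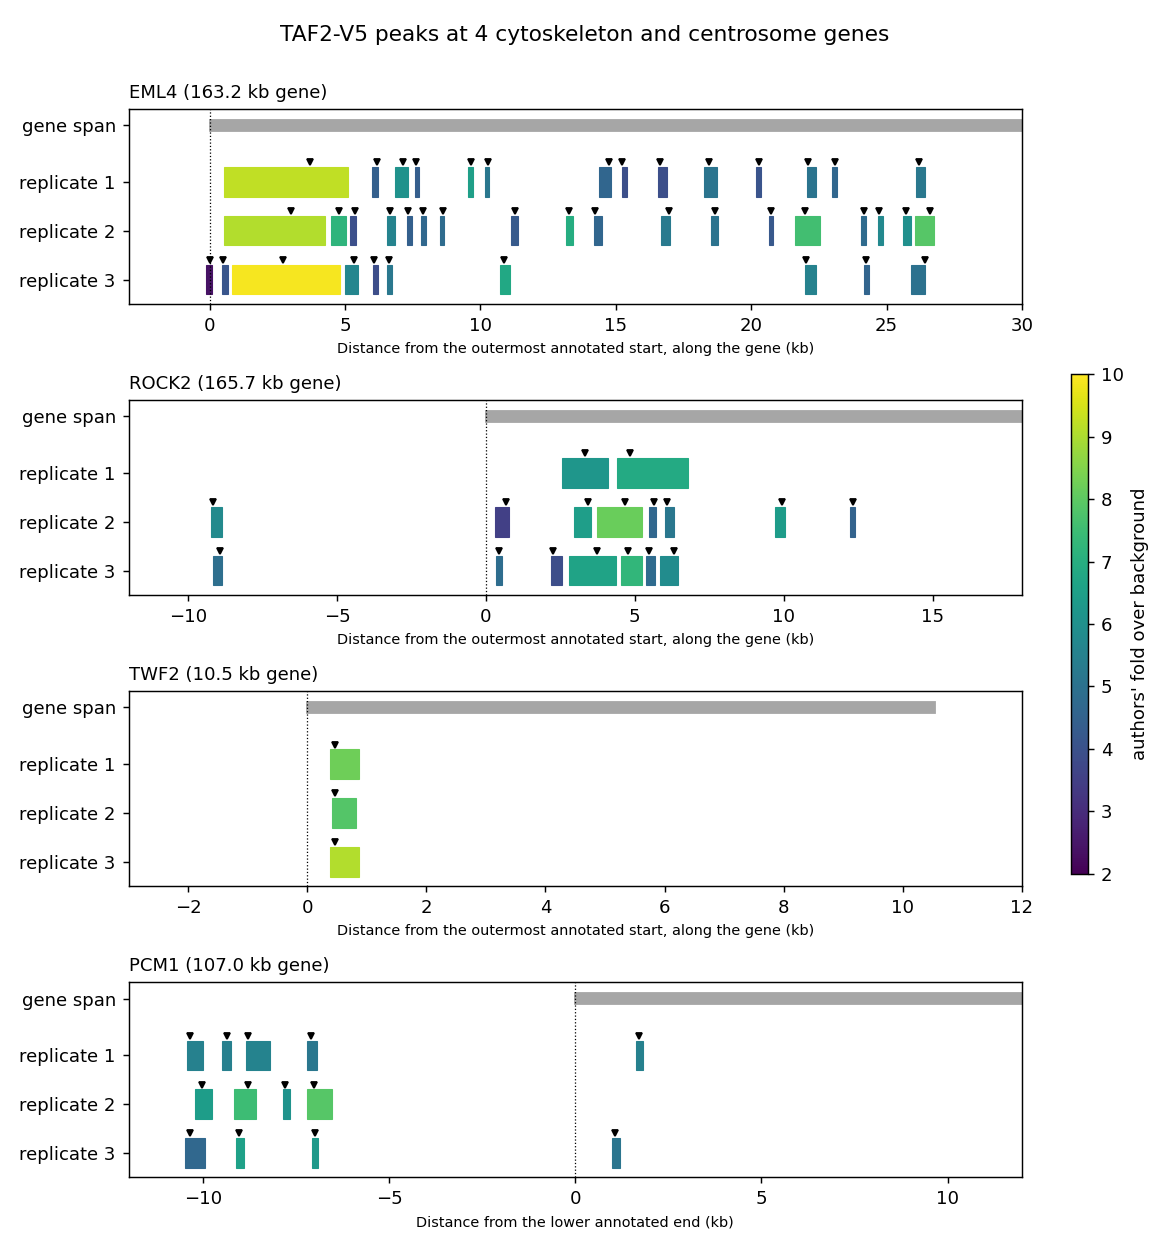
Deposited peaks of each library at EML4, ROCK2, TWF2 and PCM1, drawn to scale by distance in kb from the outermost annotated start along the gene (for PCM1, from its lower annotated end). Bars are peaks coloured by the authors' fold over background, triangles are summits and the grey bar is the gene, cut at the right edge of the panel where it is longer. The wide EML4 peak of each library, the central block of ROCK2, the single TWF2 peak and the PCM1 run before the gene recur in 3 libraries.

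The strongest EML4 peak of each library was also its widest. It had a fold over background of 9.23 in replicate 1, 9.08 in replicate 2 and 9.88 in replicate 3, where the fold is the authors' value and is used only within its own list. These folds stood at percentiles 97.7, 96.0 and 98.1 of their lists. The widths were 4577, 3712 and 4006 bp, ranks 6, 8 and 8 by width in the lists, whose median peak width was 220 to 224 bp. Peaks of this width are uncommon in these lists. The summits lay 3704, 3012 and 2700 bp downstream of the start, so that the 3 libraries agreed on the block but placed its highest point up to 1004 bp apart.

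Merged with the peaks that it touched, this block formed a region from 42169800 to 42174823, 5024 bp wide and made of 7 peaks. Its width ranked 10 among all 3783 merged regions of the lists, of which 32 were wider than 2000 bp. Its first bases also lay over EML4-AS1, an antisense noncoding RNA gene whose annotated start, on the opposite strand, is at 42170231. The wide peak of each library covered that start. The lists carry no strand, so peaks there cannot be assigned to either gene.

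The start of EML4 itself was covered in replicate 3 only. That peak (42169200 to 42169444) had its summit 1 bp past the start, with a fold of 2.39, at percentile 1.27 of its list and thus among the weakest. The nearest peaks of replicates 1 and 2 began 515 and 541 bp inside the gene. A further peak of replicate 3, with a fold of 4.12, formed the edge of the wide region at 42169800 to 42170020.

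Beyond the first 5 kb the EML4 peaks were narrow, and many were of a single library. Peaks with summits in the first 5 kb covered 4577, 4272 and 4472 bp in replicates 1, 2 and 3, of 8209, 9189 and 6830 bp covered in all. From 15 to 20 kb replicate 3 had none, against 3 peaks in replicate 1 and 2 in replicate 2. Of the 24 merged regions at EML4, 10 held peaks of at least 2 libraries and 3 held peaks of all 3. The other 2 regions of 3 libraries were at 42190983 to 42191894, with folds of 5.07 to 7.57 and summits within 114 bp, and at 42194963 to 42196113, with folds of 4.97 to 7.88. The last marks the far edge of the run. In rank the EML4 peaks were spread widely over each list, with 7 of 14, 9 of 18 and 5 of 10 peaks above the median of the list.

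The count of shared EML4 regions rests on the libraries used. It was 5 without replicate 1, 4 without replicate 2 and 7 without replicate 3. It was 3 when only peaks with −log10 q from 5 upward were kept, while the extent was still 24.6 kb.

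ROCK2 (chromosome 2, 11179759 to 11345437, minus strand) is 166 kb long and had 2 peaks in replicate 1, 8 in replicate 2 and 7 in replicate 3, on average 5.67 ± 3.21 (SD, n = 3). The bases covered were nearly equal in spite of this, at 3963, 3991 and 4003 bp, a mean of 3986 ± 20.5 bp. These bases did not all lie in the same place. In the widest region of the gene the covered bases were 3963, 2640 and 3513 bp, in 2 wide peaks (2404 and 1559 bp) of replicate 1, 4 peaks of replicate 2 and 5 of replicate 3, and the rest of the bases of replicates 2 and 3 lay outside it.

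The central block of ROCK2, from 11338648 to 11343242, was 4595 bp wide, joined 11 peaks of all 3 libraries and ranked 14 by width among all regions. The strongest peak of each library lay in it, with folds of 6.86, 8.16 and 7.26 in replicates 1, 2 and 3, at percentiles 87.7, 92.4 and 90.0 of their lists. Their summits were 4838, 4657 and 4761 bp from the outer start, a spread of 181 bp. They lay closer together than the strongest summits of EML4.

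Nearer the start, a region at 11344663 to 11345146 held weak peaks of replicates 2 and 3, with folds of 3.51 and 4.84, at percentiles 3.85 and 41.4. It lay between the 2 annotated ROCK2 starts, 27 bp upstream of the inner one at its nearest edge in replicate 2 and 270 bp upstream in replicate 3. Replicate 1 had no peak there, and its nearest peak began 2541 bp inside the outer start. Replicate 2 alone had peaks deeper in the gene, with summits 9926 and 12330 bp from the start. All summits over ROCK2 fell within 7.44% of its length, and the remaining 153 kb was free of peaks.

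Outside the gene, replicates 2 and 3 shared a region at 11354288 to 11354661, with folds of 5.79 and 4.90. It lies over PPIAP60, a neighbouring annotated gene, and not over ROCK2. It was the farthest peak inside the window, 8852 bp from the gene in replicate 3. Just outside the window, 11858 bp from the gene, replicate 3 had a peak with a fold of 7.31, and replicates 1 and 2 had peaks at the same place with folds of 5.84 and 10.03. The position of the window edge therefore leaves out a region of 3 libraries that is stronger than the last region inside.

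**Figure D2:**
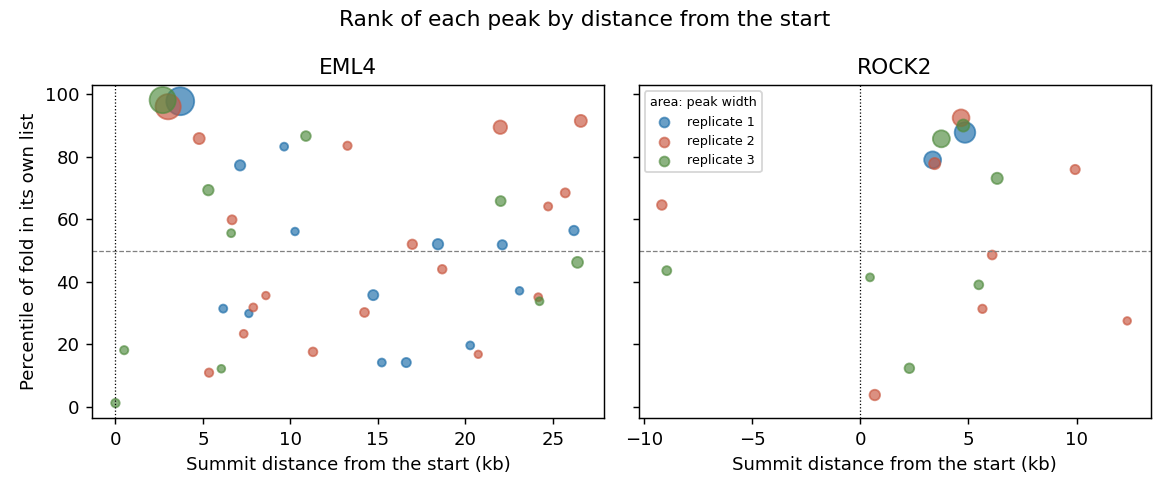
Percentile of each peak's fold within its own list (y axis) by the distance of its summit from the outermost annotated start in kb (x axis), for EML4 and ROCK2, with circle area growing with peak width. The widest EML4 peaks stand at percentiles 96.0 to 98.1, 2700 to 3704 bp into the gene, and the strongest ROCK2 peaks at 87.7 to 92.4. The EML4 peak nearest the start stands at 1.27 in replicate 3, and in replicates 1 and 2 it is the widest peak itself. The ROCK2 peak nearest the start stands at 79.0, 3.85 and 41.4 in replicates 1, 2 and 3.

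TWF2 (chromosome 3, 52228612 to 52239158, minus strand) is 10.5 kb long and had exactly 1 peak in each library. The peaks were 489, 406 and 489 bp wide in replicates 1, 2 and 3. Their folds were 8.23, 7.87 and 9.09, at percentiles 94.7, 90.8 and 96.8 of the lists. Each library thus placed TWF2 among the stronger peaks of its list.

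The TWF2 summits were 473, 470 and 466 bp inside the annotated start, within 7 bp of each other. Across all peaks of the lists that overlapped a peak of another library, the median distance between summits was 48 to 50 bp. The merged region ran from 52238280 to 52238777, and none of its bases reached the start. TWF2-DT, a divergent noncoding RNA gene, starts at 52239238 on the opposite strand and held no peak. Nor did TLR9, a receptor of the innate immune system, and PPM1M, a protein phosphatase gene, which also lie in the window. The nearest other peak was 48.7 kb from TWF2, in replicate 3.

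PCM1 (chromosome 8, 17922988 to 18029948) is 107 kb long and had 5 peaks in replicate 1 and 4 in each of the others by the same rule, on average 4.33 ± 0.577 (SD, n = 3). Only 2 of these 13 peaks touched the gene. Replicate 3 had the first (17923988 to 17924195, fold 5.12) and replicate 1 the second (17924629 to 17924802, fold 5.49), and they did not overlap and lay also over LOC124901867, an annotated gene that overlaps the lower end of PCM1. No region shared by libraries therefore lay over PCM1, and the remaining 105 kb of the gene held no peak.

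The shared PCM1 regions lay before the gene. They were at 17912518 to 17913234, at 17913818 to 17914799 and at 17915776 to 17916465, each with peaks of all 3 libraries, and all overlapped the annotated gene LOC124901892. Their strongest folds were 5.59 in replicate 1, 7.88 in replicate 2 and 6.54 in replicate 3, at percentiles 67.5, 91.1 and 83.8 with those of replicates 1 and 3 in the second region and that of replicate 2 in the third. Within 10 kb the strongest summits of the libraries were thus up to 2009 bp apart. Farther from the gene replicates 1 and 3 had stronger peaks, with folds of 6.62 and 8.15, which this distance leaves out.

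The 10 kb window cut this run. The last peak inside it reached to 9993 bp from PCM1, in replicate 1, and the next one outside lay at 10586 bp, in replicate 2. Between 10 and 25 kb from PCM1 there were 6, 3 and 4 further peaks in replicates 1, 2 and 3, which covered 2934, 3884 and 3787 bp, with folds of up to 6.62, 7.49 and 8.15. They were on the same side of PCM1 and continued the run. In full, the run before PCM1 held 10, 7 and 7 peaks and extended over 8761, 9145 and 8785 bp, starting within 33 bp of the same position in the 3 libraries. It ended 6926, 6523 and 6916 bp before PCM1. The extent by the rule, 12.3 kb in replicate 1, 3.69 kb in replicate 2 and 11.7 kb in replicate 3, varied because replicate 2 had no peak over the gene.

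The order of the 4 genes depended on the measure. By covered bases EML4 came first, with 6830 to 9189 bp over the libraries, then ROCK2 with 3963 to 4003 bp, PCM1 with 1081 to 1949 bp and TWF2 with 406 to 489 bp, and the ranges of neighbours did not overlap. The order of ROCK2 and PCM1 turned with a window of 25 kb, which takes in the whole run before PCM1. In it PCM1 had 4764, 5833 and 4868 bp covered in replicates 1, 2 and 3, and ROCK2 had 4272, 4455 and 4421 bp. By number of peaks the ranges of ROCK2 (2 to 8) and PCM1 (4 to 5) overlapped. By the percentile of the strongest peak within 10 kb in its list the order was EML4 (97.3 ± 1.13), TWF2 (94.1 ± 3.06), ROCK2 (90.0 ± 2.34) and PCM1 (80.8 ± 12.1, SD, n = 3 each), and the ranges of each pair of neighbours overlapped. Stronger peaks lay between 10 and 25 kb from PCM1 in replicates 1 and 3, with folds of 6.62 and 8.15 against 5.59 and 6.54 within 10 kb, but not in replicate 2. The same held for ROCK2 in replicates 2 and 3, with 10.03 and 7.31 against 8.16 and 7.26, but not in replicate 1. This order was not computed for 25 kb.

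**Figure D3:**
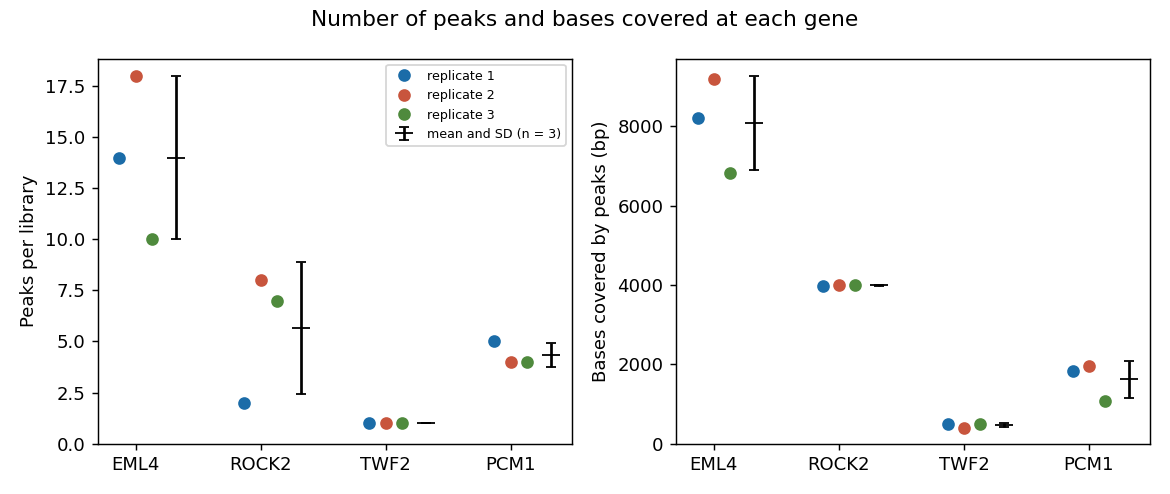
Number of peaks (left) and bases covered by peaks in bp (right) at each gene, with a point per library and the mean ± SD of 3 libraries. ROCK2 has 2, 8 and 7 peaks but 3963 to 4003 bp covered in each library, and the ranges of covered bases of the 4 genes do not overlap within 10 kb. With 25 kb PCM1 lies above ROCK2, at 4764 to 5833 bp and 4272 to 4455 bp.

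How far the libraries covered the same bases also differed. At TWF2 83.0 to 96.4% of the bases covered in either library of a pair were covered in both, at ROCK2 42.0 to 57.4%, at EML4 46.4 to 51.3% and at PCM1 25.5 to 26.3%. Over all peaks of the lists these shares were 31.3 to 33.2%. The shares of EML4, ROCK2 and TWF2 lay above those of the lists in each pair, and the share of PCM1 lay below. The PCM1 share takes only the peaks within 10 kb, a window that cuts its run. It was not computed for the whole run, so whether that run lies below the lists cannot be read from it. Counted by peaks, the comparison with the lists went both ways at EML4. Of its 14 peaks in replicate 1, 7 recurred in replicate 2 and 4 (28.6%) in replicate 3, where 60.7% and 51.7% of the whole list did. Of its 18 peaks in replicate 2, 8 (44.4%) recurred in each of replicates 1 and 3, where 37.7% and 41.0% of the list did. Of its 10 peaks in replicate 3, 6 recurred in replicate 1 and 7 in replicate 2, where 44.3% and 55.6% of the list did. At PCM1, within 10 kb, it also went both ways. Of the replicate 1 peaks 60% recurred in replicate 2 and 40% in replicate 3, below the shares of that list. Of the replicate 2 peaks 75% recurred in each of replicates 1 and 3. Of the replicate 3 peaks 50% recurred in replicate 1 and 75% in replicate 2, so that replicates 2 and 3 lay above their lists.

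**Figure D4:**
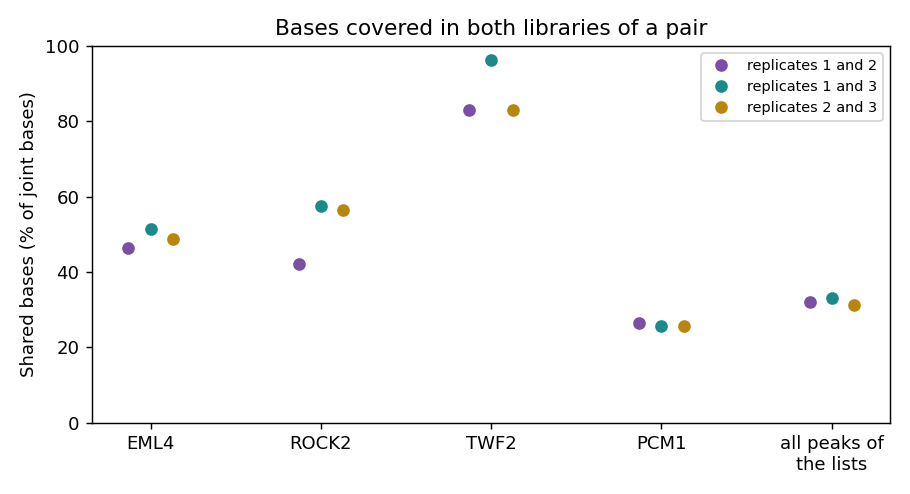
Bases covered in both libraries as a percentage of the bases covered in either, for each pair of libraries, at each gene and over all peaks of the lists. TWF2 lies at 83.0 to 96.4%, EML4 and ROCK2 between 42.0 and 57.4%, and PCM1 at 25.5 to 26.3%, below the 31.3 to 33.2% of all peaks. The PCM1 points hold only the part of its run within 10 kb of the gene.

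All 4 genes had a region of at least 2 libraries over the span or within 10 kb, as did 873 of 19987 protein-coding genes (4.37%), and all 4 had a region of 3 libraries, as did 2.04% of genes. Of genes of at least 100 kb, which EML4, ROCK2 and PCM1 are, 7.22% had a region of at least 2 libraries. At least 5 peaks in at least 2 libraries were present at EML4 and ROCK2, and at 58 genes in all (0.29%). EML4 had them in all 3 libraries, as did 0.22% of genes. The same 2 of the 4 genes had a shared region wider than 2000 bp, against 0.235% of genes. The genes were chosen by these same peaks, so nothing is read from these shares. By mean number of peaks EML4 ranked 11, ROCK2 44, PCM1 59 and TWF2 391 among the protein-coding genes.

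Runs of peaks did not lie at the start in every long gene. Of the genes of at least 100 kb with 5 or more peaks in at least 2 libraries, 7 have a start in the promoter table. In EML4 and ROCK2 the farthest summit lay at 16.3% and 7.44% of the gene length from the start. In the other 5 it lay at 2.12% in NEDD4L, 45.4% in FNDC3B, 61.8% in TXNRD1, 87.6% in GSE1 and 99.8% in VMP1. FNDC3B had 65.2% of its summits within 30 kb of the start, with a median of 5.23 kb, so that most of its peaks also lay near the start. NEDD4L encodes a ubiquitin ligase and TXNRD1 a thioredoxin reductase. Every summit lay in the first 20% of the gene in 1 of these 5 genes, and no test was made on so few.

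The genes most like each of the 4 in covered bases over the 3 libraries, by Euclidean distance of log2(bp + 1), came from several chromosomes. For EML4 they were TRIM24, a ubiquitin ligase and chromatin reader (distance 0.0921), and TGFBR2, a receptor of TGF-beta (0.286). TRIM24 had 8616, 8948 and 6614 bp covered in replicates 1, 2 and 3, close to the 8209, 9189 and 6830 bp of EML4. For ROCK2 they were VAPA, a membrane tethering protein of the endoplasmic reticulum (0.246), and FNDC3B (0.414). For PCM1 they were ACSL4, an acyl-CoA synthetase (0.386), and WDR43, a nucleolar protein (0.45). For TWF2 they were SLC51B, a bile acid transporter subunit, and RASL12, which share a region of 471, 415 and 525 bp and hence a distance (0.12).

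Other genes of the same pathways mostly had no shared peak. Of 164 such genes, 11 (6.71%) had a region of at least 2 libraries over the span or within 10 kb, against 4.37% of all protein-coding genes, and none had 5 or more peaks in 2 libraries. The median number of peaks per gene was 0, as over all genes tested. With 0.29% of all protein-coding genes that densely covered, a count of 0 among 164 says nothing about these genes. Without any single replicate the count was 6 or 7.

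Among microtubule genes, 4 of 35 (11.4%) had a shared region, where 4.37% of all protein-coding genes did. KATNA1, the catalytic subunit of the microtubule-severing katanin, had a peak of 146 to 235 bp in each library, with a summit as near as 9 bp to an annotated start and folds of 5.31, 3.78 and 4.92 in replicates 1, 2 and 3. NUDC, a nuclear distribution protein of the dynein pathway, had a region of 3 libraries with its nearest summit 7263 bp from a start. TUBA1C, an alpha-tubulin, had peaks of replicates 1 and 2, 65 bp from a start. TTL, a tubulin tyrosine ligase, had folds of 18.5, 19.7 and 18.1, but both shared regions lay outside its span, 60274 bp or more from its start. The other members of the EML family on the list, EML1, EML2, EML3, EML5 and EML6, had no shared region, like most protein-coding genes.

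Among centrosome genes, 2 of 41 (4.88%) had a shared region, near the 4.37% of all protein-coding genes. They were CDK5RAP2, which anchors the gamma-tubulin complex, and the satellite gene CEP72, with peaks of 2 libraries each. The CEP72 region lay outside the span of the gene. Neither CEP131 nor CEP290, which work with PCM1 at satellites, was among them. Of 40 genes of the ROCK pathway, MYH9 (non-muscle myosin heavy chain), RDX (radixin) and ADD1 (adducin) had a region of 2 libraries each, and ROCK1, the paralog of ROCK2, had none. Of 48 genes of actin dynamics 2 (4.17%) had a shared region, among them the crosslinker ACTN4 (alpha-actinin), in 2 libraries. TWF1, the paralog of TWF2, had none. Most protein-coding genes had no shared region either, so the absences named for these lists say nothing about the families. The widest region at any of these 11 genes was 622 bp, at NUDC.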

How the data were processed

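The build, per the labels, was GRCh38. The aligner, the caller with its threshold, and its control were not given in the sources used here. The authors deposited a narrowPeak list per V5 library, so replicates were not pooled. The deposited fold is a linear ratio of peak signal to the caller's background, and the deposited −log10 p and −log10 q are the caller's (the p was not used). The deposited score, 10 times −log10 q without its decimals, entered no result.

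Gene spans came from RefSeq (GRCh38.p14), which gives no exons, and starts from its promoter table (entries for EML4, ROCK2 and TWF2, not for PCM1). Peaks were assigned to a gene by overlap of at least 1 bp with its span or the 10 kb on either side, so neighbouring genes can share a peak. Overlapping peaks were merged into regions. Extent runs from the lowest start to the highest end of a library's peaks. Percentiles rank folds within a list. The genes and lists, and the rule for named genes (the 4 genes, their neighbours, the 2 genes most alike, up to 4 per list, of which 1 is not reported here), were chosen with earlier results of these data known. The long-gene comparison was added after values were seen. No test was made, and depth is unknown. Alternatives covered −log10 q of at least 3 or 5, the gene span alone, 25 kb, mutual overlap of 50%, 3 libraries and leaving out each replicate. The counting was tested on simulated data, where all 40 genes with implanted peaks returned their counts. Calculations used Python 3.11.15, numpy 2.4.6, pandas 2.3.3 and matplotlib 3.10.9.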

Additional observations from a re-analysis of the deposited data

How the results depend on the processing

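Of 81 values under an alternative, 57 stayed within 1.5 times the reported count or share, or within 1 SD of the reported extent, and 24 moved. That SD is each gene's own over the libraries, 8.82 kb at ROCK2 and 0.337 kb at EML4, so a gene with a wide spread moves less easily. The ROCK2 extent went from 13.8 to 7.48 kb over the gene span alone and still counted as unmoved. TWF2 kept its 1 region under every alternative, and its extent stayed within 1 SD under the 7 alternatives run for extents. With only peaks of −log10 q from 5 upward, EML4 had 3 shared regions and an extent of 24.6 kb, PCM1 an extent of 3.13 kb, 4 related genes a shared region, and 0.12% of protein-coding genes 5 or more peaks. With −log10 q of at least 3 the related genes numbered 7. Over the gene span alone PCM1 had 0 shared regions and an extent of 0.191 kb, and the densely covered share was 0.145%. With a window of 25 kb PCM1 had 5 regions over 14.5 kb, ROCK2 an extent of 23.8 kb and the related genes numbered 17. With an overlap of 50% of each peak required, EML4 had 6 regions. With all 3 libraries required, EML4 had 3, ROCK2 1 and the related genes numbered 4. Leaving out each replicate gave 4 to 7 regions at EML4, 1 to 5 at ROCK2 (5 without replicate 1, whose wide peaks join the block, and 1 without replicate 3), 2 to 3 at PCM1 and 6 to 7 related genes, with extents of 26.1 to 26.4 kb at EML4, 9.92 to 18.6 kb at ROCK2, 7.68 to 11.97 kb at PCM1 and 0.448 to 0.489 kb at TWF2, and a densely covered share of 0.235 to 0.255%. No paired analysis was possible because the control libraries have no peak list here and no test between groups was made. The number of peaks called limits what the lists can show, and a gene without a peak is not shown to be free of TAF2.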
